A study of Mus musculus with 23 samples.

Results

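ATP-binding cassette (ABC) transporters were examined in 23 murine pancreatic ductal adenocarcinoma (PDAC) cell lines, each measured on 1 Affymetrix GeneChip array of the mouse genome. The members were all genes whose single symbol in the platform's annotation is Abc followed by a letter from a to g and a number. They came to 45 of the 18193 genes with 1 symbol, and the probe set with the highest mean over the lines stood for each gene. The 11 non-PPT lines carry the prefixes ASC (2 lines), B (4), HEP (2), LN (1) and PUL (2) and were taken as lines from metastases. The 12 PPT lines were taken as lines from primary tumours. The labels do not explain the prefixes. The study's list of lines gives Ptf1aCre/+ or Pdx1-Cre for the listed lines, some with LSL-p53R172H/+, LSL-R26Tva-lacZ or an LSL-PCNA-fLuc reporter allele. Cre is thus driven from the pancreatic Ptf1a locus or Pdx1 promoter in the listed lines of both groups. The genotypes of HEP-5123, B-5123 and the lines of mice 15272 and 53631 were not used here. All cells were untreated and at low passage. By the numbers in the names, with B-152727 counted under mouse 15272, the lines came from 14 mice. Of these, 5 mice gave 14 of the lines.

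ABC transporters couple ATP hydrolysis to the movement of substrates across membranes. Members of the B, C and G subfamilies pump drugs and conjugates out of cells and are known for multidrug resistance, while many A, D and G members move cholesterol, phospholipids, bile constituents or fatty acids. The E and F subfamilies have no membrane domain and act in translation. Epithelial-mesenchymal transition (EMT), in which carcinoma cells lose epithelial adhesion genes and gain mesenchymal ones, is a main axis of variation among PDAC cultures.

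Promoter sequences are shown for the member with the steepest positive slope on EMT state, Abca1, and for the paralogs Abcb1a and Abcb1b, which encode the rodent P-glycoproteins and differed among lines. The sequences are the 250 bases before each gene's start in RefSeq (GRCm38.p6), read 5′ to 3′ on the gene's strand: chr4:53159896-53160145 (minus strand), chr5:8566841-8567090 (plus strand) and chr5:8797897-8798146 (plus strand). Capitals mark matches, on either strand, to CACGTG (the E-box core of MYC and USF factors), CAGGTG (an E-box that Zeb and Snai factors bind), GGGCGG (GC box), CCAAT and TATAAA. These motifs do not overlap in the windows shown.
Abca1: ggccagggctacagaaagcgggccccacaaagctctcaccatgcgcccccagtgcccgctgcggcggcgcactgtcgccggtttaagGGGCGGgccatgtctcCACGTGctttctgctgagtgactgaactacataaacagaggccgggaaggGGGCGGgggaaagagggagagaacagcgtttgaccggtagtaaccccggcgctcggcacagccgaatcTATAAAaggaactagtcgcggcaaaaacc
Abcb1a: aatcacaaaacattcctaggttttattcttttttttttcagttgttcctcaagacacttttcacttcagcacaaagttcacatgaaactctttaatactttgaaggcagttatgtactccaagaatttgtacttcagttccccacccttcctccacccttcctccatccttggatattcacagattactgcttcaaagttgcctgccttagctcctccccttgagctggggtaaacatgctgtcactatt
Abcb1b: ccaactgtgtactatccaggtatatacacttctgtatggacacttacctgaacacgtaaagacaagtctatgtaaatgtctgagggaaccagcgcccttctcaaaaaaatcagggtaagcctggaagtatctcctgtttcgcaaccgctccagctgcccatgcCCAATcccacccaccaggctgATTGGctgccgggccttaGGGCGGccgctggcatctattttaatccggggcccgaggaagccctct
The Abca1 window held CACGTG once, GGGCGG at 2 places and TATAAA once. The Abcb1b window held CCAAT at 2 places and GGGCGG once, and the Abcb1a window held none of the motifs. Of 32851 promoter windows of the same length, 6.02% held CACGTG, 17.2% CAGGTG, 32.7% GGGCGG, 33.8% CCAAT and 12.4% TATAAA. A match describes the letters only, and each gene shown was read at a single annotated start. Whether that start is used in these cells was not tested, so the windows do not compare the promoters of the paralogs. In all, 35 of the 45 members had a window, some with several starts.

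Signals are log2 values and were compared between lines, since the signal of a probe set also depends on its probes and does not rank different genes. A floor was set at 3.43, the 95th percentile of 43 probe sets for olfactory receptors, genes not expected in these cells. Of the 45 members, 24 stood above this floor in all 23 lines, 12 in some lines and 9 in no line. The floor lies below the median of all values (3.76), so standing above it is common. By their mean over the lines, 29 of 45 members and 24927 of 45037 probe sets were above it. The share of all probe sets above it in every line was not computed. With the floor at the 99th percentile (4.28), 17 members stood above it in all lines. By role, 6 of 8 drug efflux members, 7 of 14 lipid transporters, 3 of 3 mitochondrial members, 2 of 2 lysosomal members and 4 of 4 soluble members of translation stood above the floor in all lines. Among 8 other Abca members this held for Abca5 alone, and among the 2 channel regulators, Abcc8 and Abcc9 (sulfonylurea receptors), for neither. Bright probe sets, whose mean signal does not order the transcripts, were those of the ribosome recycling factor Abce1 (10.33), of Abcf1 (9.94), Abcc1 (9.44), Abcc4 (9.26) and the peroxisomal fatty acid importer Abcd3 (9.19). The probe sets of Abca16 (1.49), Abca6 (1.78), Abca13 (1.92), Abca14 (1.94) and Abcc6 (2.15) were above the floor in 0 lines.

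Members differed widely in how much they varied between lines. The SD over the 23 lines had a median of 0.34 over the 45 members and 0.28 over all probe sets. The 8 most variable members were Abca1 (SD 2.23), Abcc3 (1.88), Abcg2 (1.41), Abcb1a (1.32), Abcc4 (0.97), Abca5 (0.94), Abcb1b (0.92) and Abcc5 (0.82), and 6 of them are drug efflux genes. These 8, or 17.8% of the members, lay above the 90th percentile of the SD of all probe sets. Each member stood by its brightest probe set, while all probe sets include dim ones, so these groups are not alike. The share among the brightest probe sets of all genes was not computed. At the other end, the lysosomal peptide transporter Abcb9 had an SD of 0.13 and the mitochondrial Abcb8 of 0.17. Their other probe sets varied more, with 0.18 and 0.26 for Abcb9 and 0.37 for Abcb8. By the probe set that stood for each gene, Abce1 and the Abcf members, which act on ribosomes, ranged over at most 1.56 log2 units (Abcf2). Their SDs were 0.33 (Abce1), 0.28 (Abcf1), 0.34 (Abcf2) and 0.18 (Abcf3). Other probe sets reached an SD of 0.55 for Abce1, 0.41 for Abcf1 and 0.35 for Abcf3, while that of Abcf2 had 0.27. EMT state was expressed as a score, the mean of 11 mesenchymal markers minus the mean of 15 epithelial markers on the same array. It ran from -1.92 to 6.55 in non-PPT lines and from -2.47 to 5.71 in PPT lines.

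**Figure D1:**
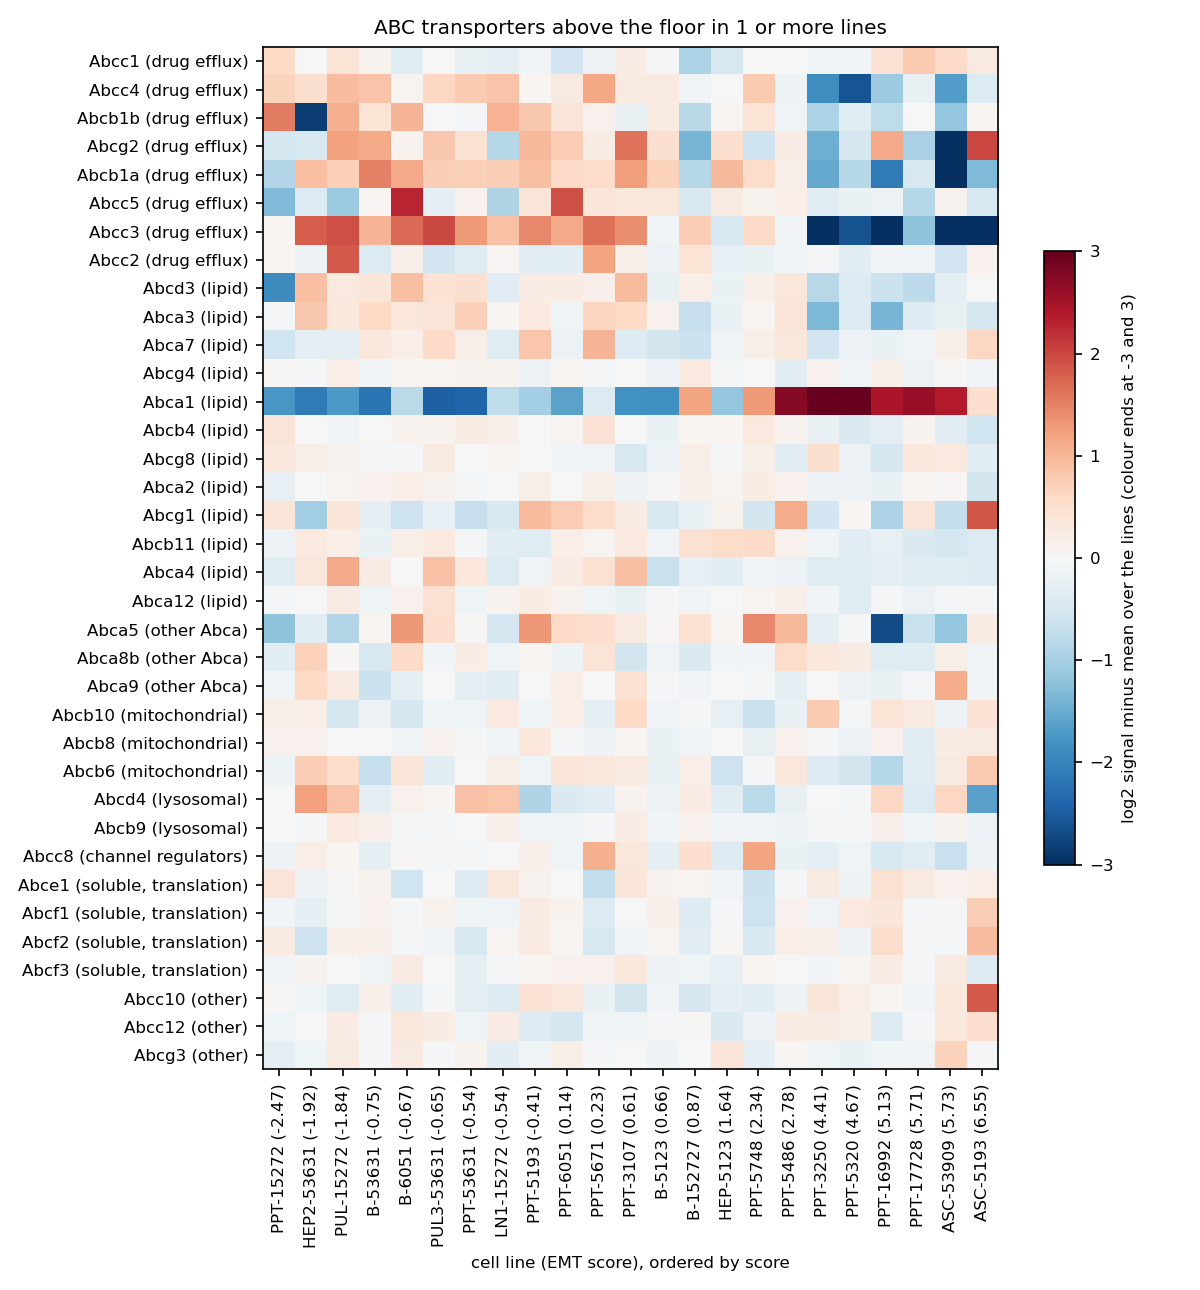
Log2 signal of each member above the floor in 1 or more lines (rows, by role), minus its mean over the 23 lines, in lines ordered from low to high EMT score (columns, score in parentheses). Abca1 was above its mean and Abcc3 below its mean in each of the 6 lines at the right end.

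Among the drug efflux genes, Abcc3, a basolateral exporter of organic anions and bile salts, had the clearest order of lines. It was 8.83 in PUL3-53631 and 8.79 in PUL-15272, against 3.45 in ASC-5193, 3.46 in PPT-16992, 3.61 in ASC-53909, 3.80 in PPT-3250, 4.23 in PPT-5320 and 5.65 in PPT-17728. The last 6 are the lines with the highest EMT scores, and the lowest value among the others was 6.40 (HEP-5123). Abcc4, which exports cyclic nucleotides and prostaglandins, was highest in PPT-5671 (10.42) and lowest in PPT-5320 (6.66), PPT-3250 (7.39) and ASC-53909 (7.57). It stayed at 8.85 in ASC-5193 and 9.04 in PPT-17728, so the lines with high scores were not alike in it.

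Abcb1a was between 7.64 and 9.0 in most lines. It was lower in ASC-53909 (3.48), PPT-16992 (5.37), PPT-3250 (5.96), ASC-5193 (6.18), PPT-15272 (6.62), B-152727 (6.64), PPT-5320 (6.65) and PPT-17728 (7.01). ASC-53909 was thus at the floor for this P-glycoprotein gene. Abcb1b, its neighbour on chromosome 5, spanned 5.94 in HEP2-53631 to 10.35 in PPT-15272, and no line was near the floor. HEP2-53631 carried Abcb1a at 8.41 while it held the lowest Abcb1b, and PPT-15272 held the highest Abcb1b with an Abcb1a of 6.62. The 2 transcripts are alike in sequence, so that probes could in part share signal.

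Abcg2, the breast cancer resistance protein, was lowest in ASC-53909 (2.87) and highest in ASC-5193 (9.65). These are the 2 lines with the highest EMT scores, and they lay at opposite ends for this gene. The next lowest values were 6.19 in PPT-3250 and 6.25 in B-152727, so ASC-53909 stood far below the other lines. Abcc5, an exporter of cyclic nucleotides, was highest in B-6051 (9.49) and PPT-6051 (9.10), which come from the same mouse. No other line exceeded 7.59 (PPT-5193). Abcc1, an exporter of glutathione conjugates, ranged from 8.50 (B-152727) to 10.22 (PPT-17728). Abcc2, known from the bile canaliculus, was above the floor in PUL-15272 alone (4.03), with 3.39 in PPT-5671 just below it.

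**Figure D2:**
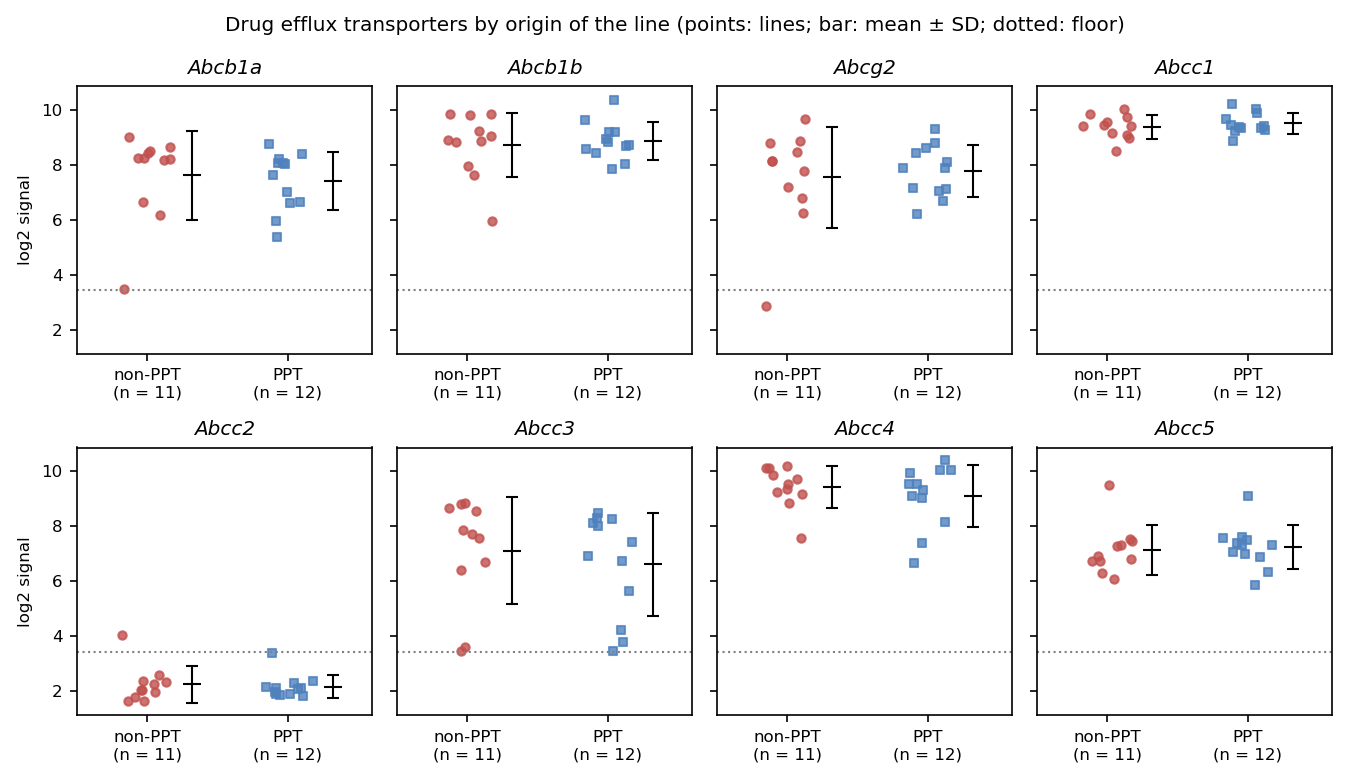
Log2 signal of the 8 drug efflux members in 11 non-PPT and 12 PPT lines (points), with mean ± SD beside them and the floor of 3.43 dotted. The groups overlapped for each gene, and ASC-53909 lay lowest for Abcb1a (3.48) and Abcg2 (2.87).

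Among the lipid transporters, Abca1, which passes cholesterol and phospholipid to apolipoprotein A-I, varied most. It was 9.47 in PPT-3250, 9.07 in PPT-5320, 7.54 in PPT-5486, 7.42 in PPT-17728, 7.27 in PPT-16992 and 7.19 in ASC-53909, against 2.35 in PUL3-53631 and 2.41 in PPT-53631. It was above the floor in 14 of 23 lines. ASC-5193, the line with the highest score, had 5.32. The other 2 probe sets of Abca1 lay below the floor on average (means 2.36 and 1.83), so the values rest on 1 probe set. Abcg1, which passes sterols to HDL, ranged from 2.96 (HEP2-53631) to 5.87 (ASC-5193), and its correlation with Abca1 over the lines was r = 0.01.

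Abca3, the surfactant lipid transporter of lung lamellar bodies, was well above the floor in all lines, from 6.47 in PPT-16992 and 6.50 in PPT-3250 to 8.67 in HEP2-53631. Abcd3 was lowest in PPT-15272 (7.27), and the next value was 8.35 (PPT-3250). Abca7, a phospholipid transporter, ranged from 5.74 to 7.40. Abcb4, which flips phosphatidylcholine into bile and lies beside Abcb1a and Abcb1b in the genome, ranged over 4.17 to 5.21. Of the sterol half-transporters Abcg5 and Abcg8, which work as a heterodimer, Abcg5 was above the floor in 0 lines and Abcg8 in 23. Abcd2, a peroxisomal fatty acid importer, was above it in 0 lines, the bile salt exporter Abcb11 in 14, the photoreceptor lipid transporter Abca4 in 8 and the skin ceramide transporter Abca12 in 2. Abca2 (3.76 to 4.52) and Abcg4 (4.52 to 5.14) were above the floor in all lines with ranges under 1 log2 unit.

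Among the members of the inner organelles, Abcb10, a mitochondrial exporter needed for haem synthesis, was lowest in PPT-5748 (6.41) and highest in PPT-3250 (7.85), and Abcb6, which carries porphyrins, ran from 5.40 (PPT-16992) to 7.05 (ASC-5193). Abcd4, which takes part in the release of vitamin B12 from lysosomes, was 5.51 in ASC-5193 and 6.24 in PPT-5193 and reached 8.37 in HEP2-53631. Abcf1 and Abcf2, ATPases of translation, were each highest in ASC-5193 (10.68 and 8.97). Of the Abca members that lie in a row on 1 chromosome, Abca5 was above the floor in 23 lines, Abca8b in 8, Abca9 in 2, and Abca8a and Abca6 in 0. Abcg3, a rodent member close to Abcg2, was above the floor in ASC-53909 alone (3.51), the line with the lowest Abcg2.

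The first comparison asked whether members differed with the origin of the lines. Between non-PPT and PPT lines no member passed the test (limma with mouse as a random block, Benjamini-Hochberg over 45037 probe sets, 0 of 45 members). Nor did any other probe set, so that 0% of all probe sets were called. At an unadjusted p under 0.05 there was 1 of 45 members, Abcc12, against 3.66% of all probe sets (1649). The methods' t-test gave 0 members after adjustment and 1 before it, against 0% and 4.46% of all probe sets (0 and 2009). Abcc12, a little studied C-subfamily member near the floor, averaged 3.60 ± 0.26 in non-PPT lines (SD, n = 11) and 3.35 ± 0.24 in PPT lines (SD, n = 12), with a limma difference of 0.30 ± 0.10 (SE, adjusted p = 0.9999).

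The drug efflux members were split evenly in sign, with 4 higher and 4 lower in non-PPT lines, and differences between -0.24 (Abcb1b) and 0.19 (Abcc3). Abcb1b averaged 8.71 ± 1.17 in non-PPT lines and 8.86 ± 0.68 in PPT lines, and Abcc3 7.11 ± 1.94 in non-PPT lines and 6.61 ± 1.87 in PPT lines (SD, n = 11 and 12). For Abcg2 these means were 7.54 ± 1.83 in non-PPT lines and 7.76 ± 0.94 in PPT lines. Lipid members lay between -1.01 (Abca1) and 0.42 (Abcd3). Abca1 averaged 3.99 ± 1.56 in non-PPT lines and 5.56 ± 2.54 in PPT lines, and its difference had an SE of 0.80. With mouse as a fixed block the difference of Abca1 was turned to 0.90 ± 0.46 (SE, adjusted p = 0.999 by limma), and the lines set against the PPT line of their own mouse differed by -0.06 to 2.92. The difference of 2.92 was that of B-152727, counted under mouse 15272. Abcd3 averaged 9.37 ± 0.44 in non-PPT lines and 9.02 ± 0.78 in PPT lines, with an SE of 0.25 for the difference. The median difference was 0.04 over the 45 members and 0.002 over all probe sets. With SEs of up to 0.80 (Abca1), a missing call does not show equal levels.

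The second comparison set the members along the EMT score. The score comes from the same arrays, and lines of 1 mouse are not independent, so mouse was a random block. In this fit 6 of 45 members passed an adjusted p of 0.05 (limma, Benjamini-Hochberg), or 13.3%, against 11.7% of all probe sets. The members' share was near the background. Of these, 1 rose with the score, against 6.25% of probe sets, and 5 fell, against 5.45%. Drug efflux genes gave 3 of the falls, Abcc3, Abcc4 and Abcb1a. Lipid transporters gave the rise, Abca1, and 2 falls, Abca3 and Abcb4. By the probe set that stood for each gene, no mitochondrial, lysosomal, translation, channel regulator or other Abca member passed. Another probe set of the mitochondrial Abcb8 did, with -0.09 (adjusted p = 0.00687 by limma), as did another of the translation member Abcf3, with -0.08 (0.0131). The slope was negative in 7 of 8 drug efflux members (median -0.14), in 11 of 14 lipid members (median -0.03) and in 29 of 45 members (median -0.01), with a median of -0.002 over all probe sets. The share of all probe sets with a negative slope was not computed. Signs of genes that run together are not independent, and these counts were not tested.

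Per unit of score, Abca1 rose by 0.65 ± 0.10 log2 units (SE, adjusted p = 1.19e-04 by limma). Over the 23 lines its r with the score was 0.81 and its rho 0.77, and r was 0.87 without ASC-5193 and ASC-53909, the lines farthest from the median score. The r was 0.76 within the 11 non-PPT lines, 0.89 within the 12 PPT lines and 0.84 over the 14 mouse means. These correlations are descriptions of points that share arrays with the score. Abcc3 changed by -0.62 ± 0.07 (adjusted p = 2.13e-06 by limma), with r = -0.89 and rho = -0.82 over the lines, and r = -0.84 without the 2 farthest lines. The r was -0.98 within non-PPT lines, -0.80 within PPT lines and -0.90 over mouse means. Within non-PPT lines rho was -0.88. There ASC-53909 and ASC-5193 stood apart with scores of 5.73 and 6.55, and the next highest was 1.64 (HEP-5123). Abca1 and Abcc3 ran opposite to each other (r = -0.76).

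Abcb1a changed by -0.36 ± 0.07 per unit (adjusted p = 0.00188 by limma), and its other probe set by -0.40 ± 0.08. Without ASC-53909 the slope of Abcb1a was -0.28 (adjusted p = 0.00452 by limma). Abcc4 changed by -0.26 ± 0.05 (adjusted p = 0.00176 by limma) and Abca3 by -0.15 ± 0.03 (adjusted p = 0.00361 by limma). Abcb4 had the smallest called slope, -0.06 ± 0.02 (adjusted p = 0.0229 by limma). Its call was lost without ASC-5193 (adjusted p = 0.119) and without ASC-53909 (adjusted p = 0.0517) in the same limma fit.

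**Figure D3:**
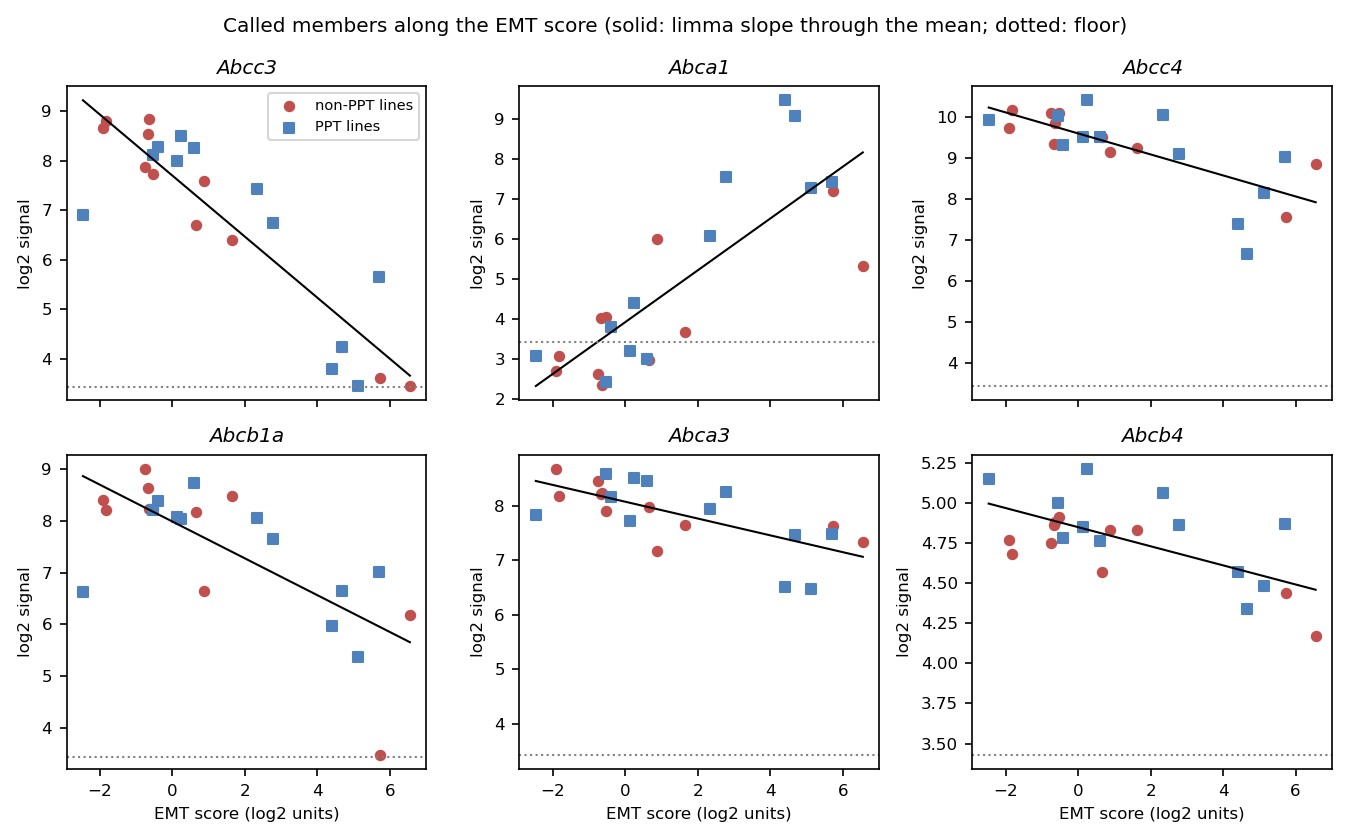
Log2 signal of the 6 called members against the EMT score in non-PPT (circles) and PPT lines (squares), with the limma slope and the floor of 3.43 (dotted). Abca1 climbs from near the floor to 9.47 (PPT-3250), and Abcc3 descends to 3.45 (ASC-5193).

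With mouse as a fixed block, so that only differences between lines of 1 mouse count, 0 of 45 members passed, and 791 of 45037 probe sets did. The slopes kept their sign for the 6 called members. They were -0.53 for Abcc3 (adjusted p = 0.0514 by limma), 0.33 for Abca1 (0.187), -0.15 for Abca3 (0.107), -0.25 for Abcb1a (0.316), -0.09 for Abcc4 (0.479) and -0.07 for Abcb4 (0.455). Among lines set against the PPT line of their mouse, ASC-5193 had the largest score difference (6.96), with an Abcc3 difference of -4.83. In mouse 15272 the PUL, LN1 and B lines had higher scores and higher Abcc3 (by 0.67 to 1.88) than the PPT line. B-53631 was lower in both. B-6051, HEP2-53631 and PUL3-53631 had lower scores and higher Abcc3 (by 0.54 to 0.71). The fixed-block slope of Abcc3 without ASC-5193 was not tested. The widest gap in the score, 1.64 units, left 6 lines above it and 17 below it. With the side of this gap as a covariate 0 members and 159 probe sets passed, and the slope was -0.25 for Abcc3 (adjusted p = 0.416 by limma) and 0.51 for Abca1 (0.337). The slopes of the other called members were then near 0, with -0.04 for Abcb1a (0.942), -0.02 for Abcc4 (0.957), -0.05 for Abca3 (0.829) and -0.01 for Abcb4 (0.969). The side of the gap is cut from the score itself, and with it the SEs grew, from 0.10 to 0.21 for Abca1 and from 0.05 to 0.10 for Abcc4. A call lost in this fit therefore does not show that a gene has no graded slope.

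The correlations with the score over all lines were not found on both sides of the gap. For Abca1, r was 0.72 within the 17 lines below the gap and -0.96 within the 6 lines above it. For Abcc3, r was -0.53 below it and -0.02 above it. For Abcc4 these values were -0.44 and 0.75, and for Abca3 -0.28 and 0.53, so that the sign turned between the sides. Abcb1a gave -0.01 below and -0.13 above the gap, and Abcb4 0.003 and -0.25.

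The other drug efflux genes did not pass. Abcb1b had a slope of -0.12 ± 0.07 (adjusted p = 0.302 by limma), which was -0.20 (adjusted p = 0.00821) without mouse 53631, whose HEP2 line held the lowest value. Abcg2 had -0.16 ± 0.11 (adjusted p = 0.383), with the 2 lines of the highest scores at its extremes. Its slope was -0.03 without ASC-53909, -0.28 without ASC-5193 and 0.05 with mouse as a fixed block, and none of these passed. Abcc1 had 0.04 ± 0.03 (adjusted p = 0.467), and passed at 0.08 (adjusted p = 0.0487) without mouse 15272. Abcc2 had -0.05 ± 0.04, and was above the floor in 1 line only. Abcc5 had -0.05 ± 0.06 (adjusted p = 0.674 by limma). It has 10 probe sets with slopes from -0.14 to 0.01, of which 1 passed with -0.14 ± 0.04 (adjusted p = 0.0482 by limma).

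Among the lipid members that did not pass, Abcd3 had -0.07 ± 0.05 (adjusted p = 0.371 by limma). Without PPT-15272, which combined the lowest score with the lowest Abcd3, the slope was -0.13 (adjusted p = 0.00561 by limma). Abca4 had -0.09 (adjusted p = 0.0994) and -0.11 (0.0401) without that line. Of the remaining roles the smallest p belonged to Abcc10, a C-subfamily drug exporter, with 0.09 (adjusted p = 0.0791 by limma). Its value was 5.85 in ASC-5193 and at most 4.44 in the other lines. The other probe set of Abcc10 (mean 3.76) had a slope of -0.03 (adjusted p = 0.430 by limma) and r = -0.24 with this one. Abca5, a lysosomal lipid transporter, had -0.10 ± 0.07, with 3.62 in PPT-16992 and 7.73 in PPT-5748. A slope for each origin was fitted as well, an alternative chosen after seeing the data. The slopes of non-PPT and PPT lines differed for 0 of 45 members after adjustment (smallest adjusted p = 0.963 by limma), against 0.00444% of all probe sets. At an unadjusted p under 0.05 they differed for 2, Abca1 and Abcc10, against 4.87% of all probe sets.

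Genes that act with ABC transporters were read from a separate list of 21 partners and regulators, of which 20 were measured. Along the score 1 rose and 4 fell, or 25.0% of the list, against 11.7% of all probe sets. Of the 20, 14 stood above the floor in all lines. Among all probe sets with a mean above the floor, 17.9% were called, which is nearer to the share of this short list. An excess of the list was not tested. Mylip, an E3 ligase for the LDL receptor and, like Abca1, a known target of liver X receptors, rose by 0.43 ± 0.06 per unit (adjusted p = 9.22e-05 by limma). Ezr (ezrin) and Slc9a3r1 (NHERF1), which tether transporters to the cortex, changed by -0.28 ± 0.04 (adjusted p = 1.76e-04) and -0.19 ± 0.04 (7.46e-04). Nr1h3, the liver X receptor alpha itself, changed by -0.15 (0.0171), opposite in sign to Abca1, and the oxidative stress factor Nfe2l2 by -0.10 (0.0376). Both calls were lost without single lines. The adjusted p of Nr1h3 was 0.0513 without ASC-5193, and that of Nfe2l2 was 0.201 without ASC-5193, 0.0844 without ASC-53909 and 0.131 without mouse 53631 (limma). The slope of Nr1h3 was -0.05 with mouse as a fixed block and turned to 0.03 with the side of the gap as a covariate. With mouse as a fixed block 2 of these passed, Ezr with -0.40 (adjusted p = 0.0384 by limma) and Slc9a3r1 with -0.29 (0.0145). By origin 0 of the 20 passed.

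Markers of other cell types were read on the same arrays. The leukocyte marker Ptprc, the endothelial markers Pecam1, Cdh5 and Tek, the acinar markers Cpa1 and Cpb1 and the hepatocyte gene Cyp7a1 were above the floor in 0 lines. Other markers of the same lists were above it in all 23 lines, 3 of 5 leukocyte, 2 of 4 acinar, 1 of 5 endothelial and 1 of 4 hepatocyte markers. The mean of the leukocyte list lay between 3.77 and 4.68 in non-PPT lines and between 3.49 and 5.00 in PPT lines. That of the acinar list was 3.85 to 4.64 in non-PPT lines and 3.14 to 4.40 in PPT lines, and that of the endothelial list 2.70 to 3.12 in non-PPT lines and 2.64 to 3.10 in PPT lines. The mean of the 4 measured hepatocyte markers lay between 2.71 and 5.85 in non-PPT lines and between 2.77 and 5.54 in PPT lines. Along the score the list means gave r = -0.22 (leukocyte), -0.07 (acinar), -0.63 (endothelial) and -0.50 (hepatocyte) over the 23 lines. The hepatocyte gene Apob fell along the score (-0.64 ± 0.18, adjusted p = 0.0220 by limma), and the part of these lists in the slopes of the transporters was not tested. Cdh1 and Krt7, epithelial markers that enter the score, changed by -1.03 and -1.31 per unit.

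Efflux genes were compared with each other over the lines, as a description. Abcb1a, Abcc3 and Abcc4 ran together, with r = 0.83 for Abcb1a and Abcc3, 0.82 for Abcc3 and Abcc4 and 0.72 for Abcb1a and Abcc4 over 23 lines. Over the 14 mouse means these were 0.87, 0.89 and 0.73. The neighbours Abcb1a and Abcb1b gave 0.34 over lines and 0.67 over mouse means. Abcg2 gave 0.62 with Abcb1a and 0.33 with Abcc3. Abcc1 and Abcc5 ran apart (r = -0.47). The lines share mice, and all values of a line share 1 array.

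Lines of the same mouse were compared with lines of different mice. Over 15 pairs within mice and 238 pairs between mice, the median absolute difference was 0.70 within and 2.21 between for Abca1, 0.71 and 1.75 for Abcc3, 0.26 and 0.79 for Abcc4, and 0.59 and 1.18 for Abcb1a. For Abcg2 it was 0.87 within and 1.08 between. Pairs share lines and were not tested. Of the 5 mice with several lines, 4 have both a PPT line and other lines. In the mouse that gave ASC-5193 and PPT-5193, Abcc3 was 3.45 in ASC-5193 and 8.28 in PPT-5193, while Abca1 was 5.32 in ASC-5193 and 3.80 in PPT-5193. The scores of these lines differed by 6.96, more than in any other such pair. In mouse 15272, Abcc3 was 8.79, 7.72 and 7.58 in the PUL, LN1 and B lines and 6.91 in the PPT line. In mouse 53631, Abcb1b was 5.94 in HEP2-53631, 9.21 in B-53631 and 8.81 in PUL3-53631, against 8.73 in PPT-53631.

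**Figure D4:**
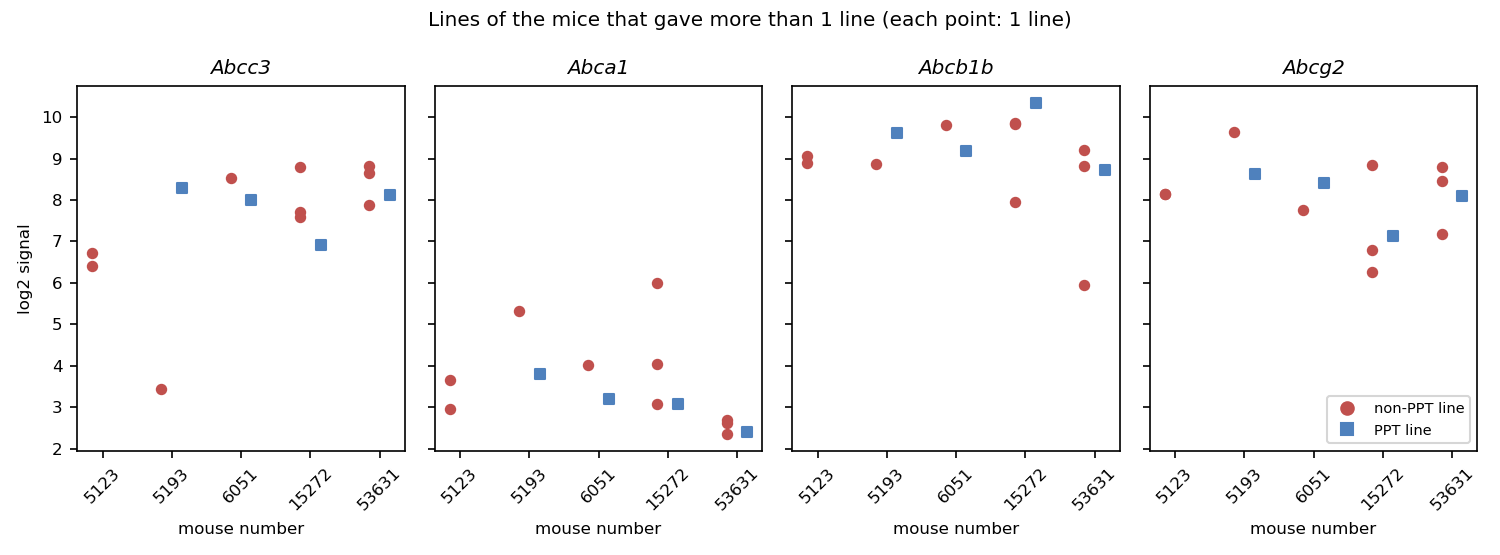
Log2 signal of Abcc3, Abca1, Abcb1b and Abcg2 in each line of the 5 mice that gave several lines, non-PPT lines (circles) left of the PPT line (square). ASC-5193 lies at 3.45 for Abcc3, far below PPT-5193 (8.28), and HEP2-53631 lies at 5.94 for Abcb1b, below the other lines of its mouse.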

How the data were processed

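RNA of 23 untreated murine PDAC cell lines was measured with 1 array per line. The table that the authors deposited holds log2 values, 1 for each probe set in each line. Its normalization is not settled, because the supplementary methods give VSN with log2 values while the processing notes of the submitters give RMA. No source used here states a version. These values were used unchanged, and array medians lay between 3.58 and 3.89. Arrays carry no counts, so the number of lines limits the precision. Each line is 1 sample, and p-values measure the spread between lines and mice.

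Of 45101 probe sets, 64 controls were left out and 45037 tested. In the platform annotation 34945 of them had 1 symbol, 932 several and 9160 none. Probe sets ending in _s_at or _x_at can match other transcripts. Of the 45 members 19 had 1 probe set. Fits used limma 3.58.1 in R 4.3.3 (lmFit, duplicateCorrelation with the mouse as a random block, eBayes), two-sided, and tables were made with Python 3.11.15. The fits were checked on simulated data. Same-numbered lines come from the same mouse, by the numbers in their names; the consensus correlation was 0.24 for origin and 0.20 for the score. Line B-152727 was counted under mouse 15272, which its label does not state. The study lists a line B-15272 and no B-152727. Other fits left this line out or gave it a mouse of its own. The alternatives left out or fixed the mouse, changed the scaling, the probe sets, the markers of the score or the covariates.

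The members and gene lists were chosen with earlier results of these data known. Genes were named by rule: each drug efflux and lipid member, the 5 brightest and 5 dimmest probe sets, the 8 largest SDs, each member or partner past the threshold, and a few others by smallest p. IC50 values towards Bez235 and Rad001 and Trp53 genotypes were not used here. Some alleles and genes are not reported here.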

Additional observations from a re-analysis of the deposited data

How the results depend on the processing

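By origin, 0 members passed under each of 29 alternatives. Along the EMT score, the 6 called slopes kept their sign under all 31 alternatives each, and 169 of 186 recomputed slopes stayed past the threshold. These counts hold the same fit more than once, since ASC-53909 is the only line of its mouse and both were left out in turn. With the replicate block (mouse as a fixed block) and with the side of the widest gap as a covariate, 0 members passed, with 0 drug efflux and 0 lipid members. The fixed block leaves the lines of 5 mice to inform a slope, and their score differences were unequal. Without PPT-15272, chosen after seeing the data, 5 lipid members passed instead of 3. The fits without ASC-5193 and without ASC-53909 were not planned either. Leaving out each mouse in turn, the count ran from 5 to 8 of all members, 3 to 4 of the drug efflux members and 2 to 4 of the lipid members, and by origin it was 0 throughout. Among uncalled slopes, the fixed replicate block turned Abcg2 to 0.0543, Abcc1 to -0.0655 and Abcc2 to 0.0078, and the side of the gap turned Abcc1 to -0.091 and Abcc5 to 0.13. Without single mice the slope of Abcc5 ran from -0.14 to 0.0041 (without the mouse of B-6051 and PPT-6051). The fixed block also turned the origin difference of Abca1 to 0.90. The causes were not tested. Centring each array on its median moved the calls over all probe sets to 3494 higher and 1668 lower, against 2817 higher and 2454 lower as deposited. Over all probe sets 6513 passed with no block and 791 with the fixed block. Abcb4 also lost its call with mesenchymal markers alone. The floor at the 99th percentile left 17 members above it in all lines and the array median 19, against 24. Signals near the floor limit what can be seen of dim members.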
